A study of Mus musculus with 49 samples.

Results

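The 10 RiboTag libraries of the nucleus accumbens (NAc) that came from female mice, 5 from D1 and 5 from D2 medium spiny neurons (MSNs), were compared across genes. They were the columns of the deposited count table whose names placed them in the D1 or the D2 female RiboTag group, and they made up 10 of the 49 samples of the series. All 10 mice were C57BL/6J, each library came from a different animal, and no mouse was given a treatment in the labels. Age was not given in the sources used here. The D1 mice were Drd1-cre x Rpl22-loxPexon4loxP-exon4-HA and the D2 mice Drd2-cre x Rpl22-loxPexon4loxP-exon4-HA, so all 10 carried the same conditional Rpl22 allele and the groups differed in the Cre driver. RiboTag is an affinity method in which Cre switches on a hemagglutinin (HA) tag on the ribosomal protein Rpl22 and antibody to HA pulls the tagged ribosomes, with the RNA on them, out of fresh tissue. The tag therefore sits in every cell in which the Drd1-cre or Drd2-cre driver was active, not only in MSNs. The libraries carry the numbers of the count table (D1 1, 2, 4, 5 and 6, D2 1, 2, 3, 5 and 6), and lists of 5 values below follow that order.

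MSNs are the GABAergic projection neurons of the striatum and respond to dopamine. D1-MSNs carry the dopamine receptor Drd1, which couples to stimulatory G proteins and raises cAMP, and make the peptides dynorphin (Pdyn) and substance P (Tac1). D2-MSNs carry Drd2, which couples to inhibitory G proteins, together with the adenosine receptor Adora2a, and make enkephalin (Penk). Cholinergic interneurons of the striatum carry Drd2 as well.

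The comparison turned on the genes of these receptors and peptides, so the 250 bases upstream of the start site of 4 D1- or D2-enriched genes are shown for reference, as RefSeq gives them on GRCm38.p6, 5′ to 3′ on the strand of the gene. They were searched on both strands for the cAMP response element TGACGTCA, the GC box GGGCGG and the CCAAT box CCAAT, none of which contains another of the 3. Capitals mark the matches. Where the table holds 2 start sites of a gene, the site farthest upstream was taken.
Drd1, chr13:54055659-54055908, minus strand: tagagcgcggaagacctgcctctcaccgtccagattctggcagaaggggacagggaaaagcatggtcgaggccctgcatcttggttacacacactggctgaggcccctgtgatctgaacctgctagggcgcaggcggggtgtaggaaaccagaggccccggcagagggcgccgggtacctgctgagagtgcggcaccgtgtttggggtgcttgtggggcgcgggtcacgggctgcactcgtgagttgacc
Pdyn, chr2:129699939-129700188, minus strand: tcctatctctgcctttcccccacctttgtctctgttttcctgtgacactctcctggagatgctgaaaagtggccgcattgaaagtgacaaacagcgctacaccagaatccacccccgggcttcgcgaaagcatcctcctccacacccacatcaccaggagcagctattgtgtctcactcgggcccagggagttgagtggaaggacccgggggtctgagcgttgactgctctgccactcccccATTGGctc
Drd2, chr9:49340153-49340402, plus strand: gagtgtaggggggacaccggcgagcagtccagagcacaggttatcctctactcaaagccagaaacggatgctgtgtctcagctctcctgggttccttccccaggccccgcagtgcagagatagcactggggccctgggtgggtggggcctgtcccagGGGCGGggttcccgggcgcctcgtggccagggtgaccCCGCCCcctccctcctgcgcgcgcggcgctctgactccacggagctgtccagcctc
Gpr6, chr10:41072291-41072540, minus strand: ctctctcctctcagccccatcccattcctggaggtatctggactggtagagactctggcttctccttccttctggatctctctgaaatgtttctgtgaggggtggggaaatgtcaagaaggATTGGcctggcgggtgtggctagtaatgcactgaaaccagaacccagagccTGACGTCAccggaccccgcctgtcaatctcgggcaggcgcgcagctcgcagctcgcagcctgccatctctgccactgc
The Drd2 window held 2 GC boxes, the Pdyn window 1 CCAAT box, and the Gpr6 window 1 cAMP response element and 1 CCAAT box, while these letters were not in the Drd1 window. Of all 32851 windows in the table, 1.55% held TGACGTCA, 32.7% GGGCGG and 33.8% CCAAT. Among the 4995 genes tested between D1 and D2 that had a window, the shares with a match in at least 1 window were higher, at 3.62%, 65.1% and 39.5%. A match describes the sequence only and is not evidence of a bound factor.

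The table held between 29436395 and 36625156 counts per D1 library (median 30168291) and between 30556702 and 45641342 per D2 library (median 39833067). The 10 genes with the most counts, led by the overlapping ribosomal RNA gene models CT010467.1, Gm42418 and AY036118 on chromosome 17, took between 84.95% and 87.48% of the counts of a D1 library and between 86.22% and 87.55% of those of a D2 library, which left 4209414 to 5778707 counts per library for all other genes. None of the 3 ribosomal RNA models passed the test between D1 and D2 (log2 fold change 0.16 to 0.19, adjusted p = 0.227, 0.153 and 0.146), but they passed it without D1 library 4 (adjusted p = 0.017, 0.00834 and 0.00715), and Gm42418 and AY036118 passed it by DESeq2 (adjusted p = 0.0474 and 0.0448). Xist was counted 90 to 402 times in each of the 10 libraries against 0 to 9 counts for 4 Y-linked genes together, so all 10 matched their label as female. The male RiboTag columns were mixed by the same measure. In D1 columns 1, 2, 3 and 4 and D2 columns 2 and 6 Xist was also above the Y-linked sum (258 against 18 counts in D1 column 1), and in the others it was below. Xist above the Y-linked sum therefore did not set the labels of the RiboTag columns apart. Rpl22 itself, the tagged gene, was at 2.90 ± 0.214 and 2.73 ± 0.382 CPM (counts scaled to library size) in D1 and D2 (SD, n = 5, adjusted p = 0.818). Here and below CPM are normalized by the trimmed mean of M values (TMM).

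The 2 cell types separated on the first principal component, which held 36.3% of the variance and placed all D1 libraries between −8.80 and −5.72 and all D2 libraries between 5.13 and 9.60. D1 library 4 stood apart on the second component (13.7% of the variance) at 10.4, where the other 9 lay between −7.12 and 3.57. Results of several genes that this library moved are given with and without it below.

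**Figure D1:**
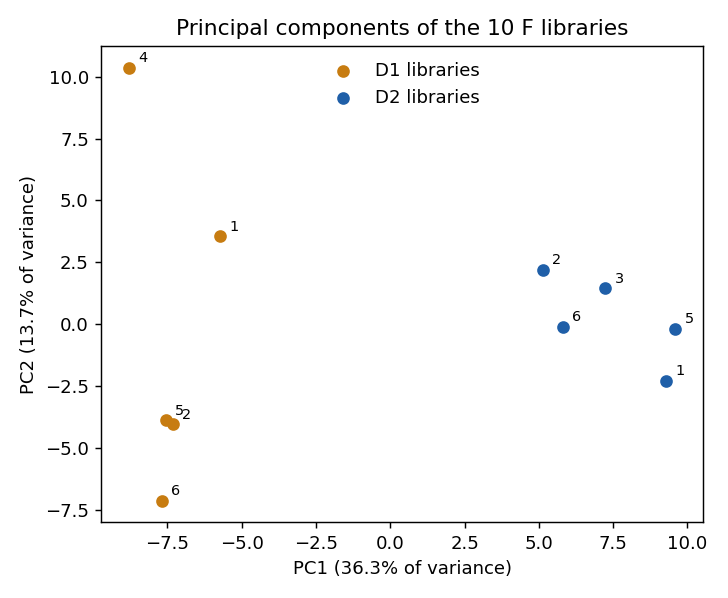
Principal components of the 10 libraries, from the genes tested; each point is 1 library with its number in the count table, PC1 on the x axis and PC2 on the y axis. D1 libraries lie at −8.80 to −5.72 and D2 libraries at 5.13 to 9.60 on PC1, and D1 library 4 lies at 10.4 on PC2.

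The defining markers followed the labels in every library. Drd1, Pdyn, Tac1, Slc35d3 and Chrm4 were enriched in D1-MSNs and Drd2, Adora2a, Penk, Gpr6, P2ry1, Sp9 and Grik3 in D2-MSNs, and for each of these 12 genes the D1 and D2 libraries did not overlap. In pooled ribosome-bound RNA, more cells of a type and more RNA per cell cannot be told apart. A gene was called a differentially expressed gene (DEG) at an adjusted p of at most 0.05 by edgeR's quasi-likelihood test over 7057 genes if its log2 fold change also exceeded 0.38 in size and its mean count was not in the lowest 25% of genes. By this rule 1.18% of all genes tested were D1-enriched and 0.723% D2-enriched, and the libraries did not overlap for 4.95% of all genes, 2.59% higher in D1 and 2.35% higher in D2. Log2 fold changes are D2 minus D1, so negative values are higher in D1.

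Drd1 (chr13:54051183-54055705, GRCm38, minus strand) was at 25.9, 30.2, 28.8, 32.3 and 32.7 CPM in the D1 libraries. In the D2 libraries it was at 4.74, 10.7, 9.06, 4.89 and 10.8 CPM. Every D1 library was above every D2 library, and among the D2 libraries numbers 1 and 5 were lowest (log2 fold change -1.91, SE 0.16, adjusted p = 7.75e-08). Pdyn (chr2:129686565-129699844), the dynorphin precursor, was at 32.3, 31.3, 30.9, 38.0 and 38.3 CPM in D1. Its D2 values were 2.40, 6.91, 5.29, 1.89 and 5.69 CPM, again with libraries 1 and 5 lowest, and it had the largest change of the D1-enriched DEGs (log2 fold change -2.96, SE 0.20, adjusted p = 1.67e-09).

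Tac1, the substance P precursor, rose less, from 7.05 ± 2.80 CPM in D2 to 17.3 ± 1.41 CPM in D1 (log2 fold change -1.30, SE 0.17, adjusted p = 4.57e-05). Slc35d3, a nucleotide sugar transporter family member with a known role in D1 receptor trafficking, was at 8.87 ± 1.95 CPM in D1 against 2.15 ± 0.908 in D2 (log2 fold change -2.06, SE 0.20, adjusted p = 5.58e-07). Chrm4, the inhibitory muscarinic receptor of D1-MSNs, was at 4.53 ± 0.739 CPM against 2.15 ± 0.903 (log2 fold change -1.08, SE 0.20, adjusted p = 0.0019). Isl1, a transcription factor of the D1 lineage that cholinergic interneurons also use, was at 2.52 ± 0.279 CPM in D1 and 0.980 ± 0.418 in D2. It passed the adjusted p (log2 fold change -1.39, SE 0.20, adjusted p = 0.00013) and was not a DEG because its mean count was too low. In 5 of these 6 genes libraries 1 and 5 were the lowest of the D2 group, and in Isl1 libraries 5 and 3 were.

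Drd2 (chr9:49340627-49408177, plus strand) was at 49.0, 44.5, 52.6, 46.2 and 47.6 CPM in the D2 libraries. In the D1 libraries it was at 8.19, 8.17, 6.98, 5.55 and 7.35 CPM. The groups were far apart relative to their spread and Drd2 had the smallest p-value of all genes tested (log2 fold change 2.73, SE 0.08, adjusted p = 3.42e-15). Adora2a (chr10:75316877-75334784) was at 52.1, 40.5, 46.5, 52.6 and 39.2 CPM in D2. It was at 8.13, 7.24, 7.41, 3.79 and 3.47 CPM in D1, where libraries 5 and 6 held about as little as each other and less than the rest (log2 fold change 2.96, SE 0.16, adjusted p = 1.34e-10).

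Penk (chr4:4133531-4138819, minus strand), the enkephalin precursor, was at 844, 652, 714, 878 and 704 CPM in D2. The D1 libraries held 188, 125, 127, 98.2 and 82.8 CPM, and every D1 library was below every D2 library, with the most in library 1 and the least in library 6 (log2 fold change 2.61, SE 0.15, adjusted p = 3.37e-10). A830012C17Rik, whose gene model overlaps Penk, moved with it (log2 fold change 2.49, SE 0.15, adjusted p = 3.63e-10). Reads were counted without strand and given to every gene they overlap, so the 2 cannot be told apart. Gpr6, a constitutively active receptor that raises cAMP, was at 2.22 ± 0.766 CPM in D1 and 12.5 ± 1.90 in D2 (log2 fold change 2.51, SE 0.15, adjusted p = 4.85e-10). P2ry1, a purine receptor, and Sp9, a zinc finger factor needed for D2-MSN development, rose in D2 by 2.23 (SE 0.16, adjusted p = 5.48e-09) and 1.60 (SE 0.11, adjusted p = 1.45e-09) on the log2 scale. Grik3, a kainate receptor subunit, was at 20.7 ± 3.52 CPM in D1 and 45.8 ± 5.42 in D2 (log2 fold change 1.15, SE 0.10, adjusted p = 5.43e-08).

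**Figure D2:**
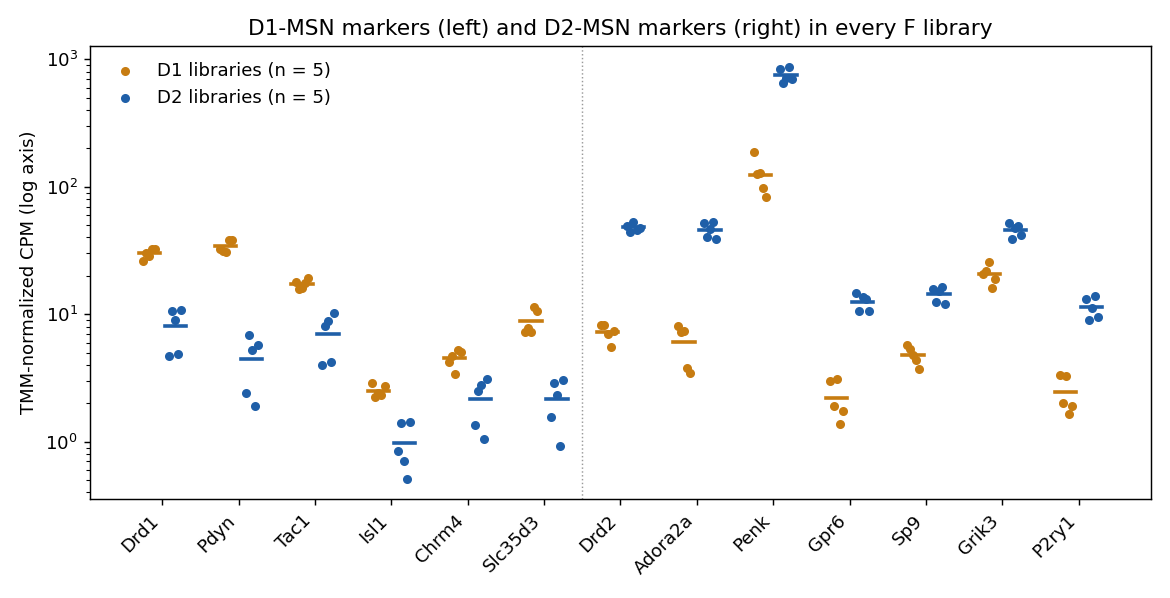
TMM-normalized CPM (y axis, log scale) of the 6 tested D1-MSN markers and the 7 tested D2-MSN markers (x axis); each point is 1 library and each bar the mean of 5 libraries of a cell type. The D1 and D2 points do not overlap for any of the 13 genes, and Penk spans the largest levels, with group means of 124 and 758 CPM.

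The summed level of the D1-MSN marker list (9 genes) was 96.9, 98.5, 95.2, 113 and 116 CPM in the D1 libraries and 17.6, 35.7, 31.4, 16.7 and 37.0 CPM in the D2 libraries. The D2-MSN marker list (9 of 10 genes in the table) summed to 238, 173, 180.2, 132 and 121 CPM in D1 and 1045, 810.3, 906, 1074 and 869 CPM in D2, most of it Penk. D1 libraries 5 and 6 held the most of the D1 list and the least of the D2 list, and D2 libraries 1 and 5 held the least of the D1 list and the most of the D2 list. Of the 9 D1 markers 6 were tested, all 6 passed the adjusted p in the D1 direction and 5 were DEGs. Of the 10 D2 markers 7 were tested, and all 7 were D2-enriched DEGs. Ebf1, Zfp521 and Eya1 on the D1 list and Upb1 and Plxdc1 on the D2 list did not enter the test because reads were scaled to the whole length of the gene in the filter. Without that filter Zfp521 (3.31 ± 0.60 against 1.20 ± 0.145 CPM) and Ebf1 (2.44 ± 0.113 against 0.894 ± 0.140 CPM) were higher in D1 (adjusted p = 2.41e-06 and 2.88e-06), and Upb1 and Plxdc1 higher in D2 (adjusted p = 9.05e-05 and 0.000104). Eya1 had an adjusted p of 0.659.

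Among all 7057 genes tested, DEGs numbered 134 (1.9%). The D1-enriched ones were 83 and the D2-enriched ones 51. Leaving the fold change and mean count aside, 319 genes (4.52%) passed the adjusted p, 180 higher in D1 (2.55%) and 139 higher in D2 (1.97%). Most changes were small, with a median absolute log2 fold change of 0.57 among D1-enriched and 0.64 among D2-enriched DEGs, and 17 D1-enriched and 11 D2-enriched DEGs differed by more than 2-fold. The log2 fold change of all genes tested had a median of 0.00 and their standard error a median of 0.09. Protein-coding genes made up 75 of the 83 D1-enriched DEGs (90.4%), 41 of the 51 D2-enriched DEGs (80.4%) and 87.0% of all genes tested. Another tested gene model overlapped 22 of the 83 D1-enriched and 28 of the 51 D2-enriched DEGs, beside 2369 of all 7057 genes tested. For these the reads could belong to either. Overlaps with gene models outside the test were not searched. Without D1 library 4 the count was 131, of which 114 were among the 134.

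**Figure D3:**
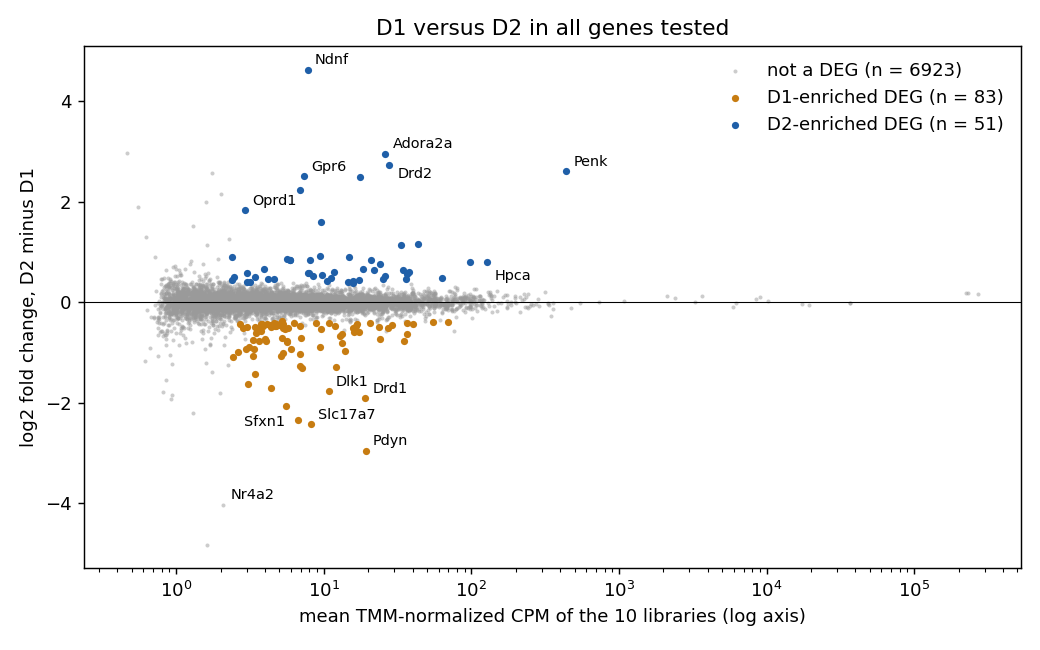
Log2 fold change, D2 minus D1 (y axis), against the mean TMM-normalized CPM of the 10 libraries (x axis, log scale) for the 7057 genes tested. Grey points are genes that were not DEGs, and the 83 D1-enriched and 51 D2-enriched DEGs lie below and above 0, with Ndnf highest at 4.63.

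Among the D1-enriched genes with the smallest p-values, Sfxn1 (chr13:54071869-54108342, plus strand), a mitochondrial serine transporter, led the order. It was at 12.1, 10.8, 11.0, 10.2 and 11.7 CPM in D1. In D2 it was at 1.94, 2.24, 2.24, 2.08 and 2.47 CPM. The spread within each group was narrow next to the difference (log2 fold change -2.35, SE 0.08, adjusted p = 6.52e-14). Sfxn1 lies within 200 kb of Drd1 on chromosome 13 and was the only other gene tested there.

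Dlk1, a noncanonical Notch ligand, was at 19.3, 18.4, 15.3, 15.8 and 14.8 CPM in D1. Its D2 values were 6.07, 4.45, 4.39, 6.29 and 3.08 CPM, and no D2 library reached a D1 library (log2 fold change -1.78, SE 0.13, adjusted p = 5.51e-09). Several signalling genes followed with smaller changes. Gnb4, a G protein beta subunit, was at 7.10 ± 0.720 against 3.55 ± 0.480 CPM (log2 fold change -1.005, SE 0.10, adjusted p = 5.45e-07), and Gnai1, an inhibitory alpha subunit, at 19.2 ± 0.877 against 13.4 ± 0.773 CPM (log2 fold change -0.51, SE 0.06, adjusted p = 4.11e-06). Ccdc88c, a scaffold of Wnt signalling, Tub, the tubby protein, and Tubb2a, a beta tubulin, were also D1-enriched, with log2 fold changes of -0.81, -0.64 and -0.51 (adjusted p = 5.83e-07, 2.42e-06 and 9.19e-06).

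Gm37264 overlaps Asic4, an acid-sensing channel family member that was D1-enriched as well, and the reads of both were shared (log2 fold changes -1.44 and -1.27, adjusted p = 1.16e-05 and 0.000112). Slc17a7 and Vxn were also among the D1-enriched genes with the largest changes and are described with the markers of other cell types.

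Ndnf (chr6:65671590-65712326, plus strand), a secreted neuron-derived neurotrophic factor, had the largest change of any DEG. It was at 12.1, 14.9, 15.3, 13.02 and 19.7 CPM in D2. In D1 it was at 0.352, 0.724, 1.10, 0.410 and 0.431 CPM, and the groups did not overlap (log2 fold change 4.63, SE 0.19, adjusted p = 7.02e-13). The limit that 3 counts set was at most 0.096 CPM in any library, below every Ndnf value.

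Oprd1, the delta opioid receptor that enkephalin activates, was at 5.05, 4.16, 4.46, 4.56 and 4.796 CPM in D2. It was at 1.18, 1.39, 1.04, 1.58 and 1.27 CPM in D1, without overlap (log2 fold change 1.83, SE 0.11, adjusted p = 5.14e-10). Hpca, the calcium sensor hippocalcin, was at 93.9 ± 4.75 CPM in D1 and 163 ± 6.66 in D2 (log2 fold change 0.80, SE 0.05, adjusted p = 5.43e-10). Both subunit genes of the nitric oxide receptor guanylyl cyclase were D2-enriched. Gucy1a1 was at 26.8 ± 3.89 CPM in D1 and 59.9 ± 3.84 in D2 (log2 fold change 1.16, SE 0.08, adjusted p = 1.71e-09). For Gucy1b1 the levels were 30.5 ± 2.31 and 42.2 ± 1.83 CPM (log2 fold change 0.47, SE 0.06, adjusted p = 1e-05).

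Ankk1, a kinase gene next to Drd2 that was named here after its values were seen, was at 0.495 ± 0.177 CPM in D1 and 3.01 ± 0.419 in D2 (log2 fold change 2.58, SE 0.19, adjusted p = 5.51e-09), and its mean count fell under the limit on the mean count for a DEG. The other 2 genes tested within 200 kb of Drd2 were Ncam1, a cell adhesion gene, and Gm11149, at log2 fold changes of -0.05 and 0.00 (adjusted p = 0.743 and 0.991).

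Receptors and neuropeptides held some of the wider differences of the lists. Of 8 opioid genes 5 were tested, with Pdyn D1-enriched, Penk and Oprd1 D2-enriched, and the kappa receptor Oprk1, on which dynorphin acts, at 4.17 ± 0.550 and 3.40 ± 0.384 CPM without passing the test (adjusted p = 0.133). Of 16 other peptide genes 6 were tested and 3 were D1-enriched, namely Tac1, Sst and Npy. Cck passed the adjusted p in the same direction at a low count (2.14 ± 1.44 against 0.461 ± 0.148 CPM, adjusted p = 0.00048). Its log2 fold change was -2.199, and -1.715 without D1 library 4 (adjusted p = 7.19e-05). Of 15 adenosine and purine receptors 4 were tested, and Adora2a and P2ry1 were D2-enriched while Adora1 was at 12.1 ± 1.01 and 12.8 ± 0.979 CPM (adjusted p = 0.617). Of 5 muscarinic receptors 2 were tested, Chrm4 as above and Chrm1 at 19.2 ± 1.69 and 19.98 ± 1.17 CPM (adjusted p = 0.735). Of 39 other G protein-coupled receptors 16 were tested, with Gpr6 among those D2-enriched and Gpr101, an orphan receptor, and Adra2c, an alpha2 adrenergic receptor, D1-enriched. Gpr101 was at 6.46 ± 1.21 CPM in D1 and 3.94 ± 1.09 in D2 (log2 fold change -0.72, SE 0.15, adjusted p = 0.00701). For Adra2c the levels were 3.58 ± 0.725 and 2.51 ± 0.278 CPM with overlapping libraries (log2 fold change -0.50, SE 0.13, adjusted p = 0.0302), and the call was lost without any of D1 libraries 2, 4 and 5 or D2 libraries 1, 5 and 6 (adjusted p up to 0.0974), and without the length filter (adjusted p = 0.0642). Without D2 library 2 the receptors Cnr1 and Gpr26 became D1-enriched as well, which made 4.

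Among the glutamate and GABA receptors tested, Grik3 was the only DEG. Of 18 ionotropic glutamate receptor genes 8 were tested and only Grik3 passed the adjusted p. The 3 tested metabotropic receptors of 8 did not pass, with Grm5 at 87.3 ± 8.94 and 87.6 ± 3.52 CPM and Grm3 at 21.5 ± 3.37 and 22.8 ± 2.17 CPM (adjusted p = 0.992 and 0.738). Of 16 GABA-A subunit genes 6 were tested and none was a DEG, with Gabra2 at 21.8 ± 0.960 and 22.4 ± 0.880 CPM (adjusted p = 0.833). Gabra4 passed the adjusted p below the fold threshold (log2 fold change 0.24, adjusted p = 0.0101). The other 10 subunit genes did not enter the test, and without the length filter Gabra3 was D2-enriched (log2 fold change 0.43, adjusted p = 0.0125) and Gabra5 D1-enriched (log2 fold change -0.53, adjusted p = 0.0172).

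Voltage-gated and background channels moved in both directions. Of 55 potassium channel genes 30 were tested, 3 were D1-enriched and 1 was D2-enriched. The D2-enriched gene was Kcnk2, a background potassium channel, at 14.4 ± 1.64 CPM in D1 and 22.6 ± 2.42 in D2 (log2 fold change 0.65, SE 0.08, adjusted p = 1.93e-05). Kcna6, a delayed rectifier, Kcng1, a modifier subunit, and Kcnj9, an inward rectifier opened by G proteins, were D1-enriched with log2 fold changes of -0.57, -0.44 and -0.44 (adjusted p = 0.00237, 0.00369 and 0.0102). Without D1 library 4, Kcnj9 was at −0.36, below the fold threshold, and was no longer a DEG (adjusted p = 0.0286). Of 31 calcium and sodium channel genes 21 were tested, and Cacna2d2, an auxiliary calcium channel subunit, was the only DEG, at 14.8 ± 1.42 CPM in D1 and 26.7 ± 3.02 in D2 (log2 fold change 0.85, SE 0.08, adjusted p = 2.22e-07).

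Downstream of the receptors, 20 of 35 G protein and RGS genes were tested. Gnb4 and Gnai1 were D1-enriched, and Gnb5, the beta subunit that pairs with RGS proteins, was D2-enriched at 21.3 ± 0.888 and 29.2 ± 1.28 CPM (log2 fold change 0.45, SE 0.05, adjusted p = 5.32e-06), with 2 other gene models overlapping it. Of 44 cyclases, phosphodiesterases and kinase regulators 27 were tested, with 2 genes D1-enriched, Pde1a among them, and Gucy1a1 and Gucy1b1 D2-enriched. Pde1a, a calcium-dependent phosphodiesterase, was at 27.6 ± 4.02 CPM in D1 and 19.5 ± 2.50 in D2 (log2 fold change -0.50, SE 0.09, adjusted p = 0.00173). Its libraries overlapped, and it fell under the length filter without any single D1 library. Without D1 library 4 the G protein list held a further D2-enriched gene, Rgs10.

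Among the tested genes that both MSN types share, those that passed were higher in D2. Of 20 such genes 19 were tested, with a median log2 fold change of 0.17 beside 0.00 over all genes tested, and 7 passed the adjusted p, all in the D2 direction. The 1 member that the length filter kept out, Foxp2, a forkhead factor, went the other way and was D1-enriched without that filter, at 32.1 ± 4.23 CPM in D1 against 21.7 ± 3.44 in D2 (log2 fold change -0.55, SE 0.10, adjusted p = 0.00195). Rasd2, a small GTPase of the striatum, was among the DEGs, at 52.5 ± 4.64 CPM in D1 and 73.2 ± 6.23 in D2 (log2 fold change 0.48, SE 0.07, adjusted p = 6.37e-05). Ppp1r1b, which encodes DARPP-32, the dopamine-regulated phosphatase inhibitor, was at 126 ± 7.79 and 141 ± 8.67 CPM and did not pass (adjusted p = 0.12). Of 49 striatal transcription factors 31 were tested, and Sp9 and Six3 were D2-enriched. Six3, a homeobox factor of the D2 lineage, was at 9.40 ± 0.713 CPM in D1 and 13.03 ± 1.56 in D2 (log2 fold change 0.48, SE 0.08, adjusted p = 0.000633), and its reads overlap the antisense gene Six3os1. Foxp1 was also higher in D2, below the fold threshold (log2 fold change 0.31, adjusted p = 0.00622).

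Most DEGs of the wiring and release lists were D1-enriched, as were 61.9% of all DEGs. Of 81 axon guidance and adhesion genes 24 were tested, 4 were D1-enriched and 1 was D2-enriched. The D1-enriched members were Plxna1, a semaphorin receptor, Ephb6, an ephrin receptor without kinase activity, Pcdh8, a protocadherin, and Cntn2, an axonal adhesion protein. Plxna1 was at 7.09 ± 1.12 CPM in D1 and 4.10 ± 0.755 in D2 (log2 fold change -0.80, SE 0.12, adjusted p = 0.000169). Nrxn2, a presynaptic adhesion protein, was D2-enriched at 30.0 ± 2.48 and 45.6 ± 1.88 CPM (log2 fold change 0.60, SE 0.06, adjusted p = 4.03e-07). Of 45 synaptic vesicle and release genes 35 were tested, and the 5 DEGs, Bsn, Syt7, Stx1a, Rims4 and Sv2b, were all D1-enriched. The active zone scaffold Bsn was at 79.3 ± 6.23 and 60.7 ± 3.60 CPM (log2 fold change -0.38, SE 0.06, adjusted p = 0.00022). Stx1a, a syntaxin of the fusion machinery, was at 7.05 ± 2.01 and 4.14 ± 0.438 CPM (log2 fold change -0.77, SE 0.14, adjusted p = 0.00161). Without D1 library 4 its log2 fold change was -0.58 (adjusted p = 0.000606). Bsn lay at the fold threshold and fell below it without any of D1 libraries 4, 5 and 6 or D2 libraries 2, 3 and 5, and without the length filter (log2 fold change −0.37). Sv2b was lost by DESeq2 (adjusted p = 0.103), without the length filter (adjusted p = 0.0622) and without D1 library 4 (log2 fold change −0.31) or D2 library 2 (adjusted p = 0.0508). Without D1 library 4 the list held 3 D1-enriched DEGs (Rims4, Stx1a and Syt7), and without D2 library 5 it also held 3 (Rims4, Stx1a and Sv2b).

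Of 41 growth factor genes 6 were tested, and the binding proteins of insulin-like growth factor Igfbp5 and Igfbp4 were D1-enriched. Igfbp5 was at 3.90 ± 0.663 CPM in D1 and 2.06 ± 0.163 in D2 (log2 fold change -0.92, SE 0.12, adjusted p = 3.33e-05). The Igfbp4 libraries overlapped, at 4.39 ± 1.13 and 2.32 ± 0.502 CPM (log2 fold change -0.93, SE 0.17, adjusted p = 0.00166). Of 32 activity-induced genes 19 were tested, with a median log2 fold change of −0.30. Nr4a3, a nuclear receptor induced by activity, was the only DEG (log2 fold change -0.49, SE 0.13, adjusted p = 0.0302), and it was lost without any of D2 libraries 3, 5 and 6 (adjusted p up to 0.106) and without the length filter (adjusted p = 0.0594). Without any of these 3, or without D1 library 5 or 6, the list held no DEG.

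**Figure D4:**
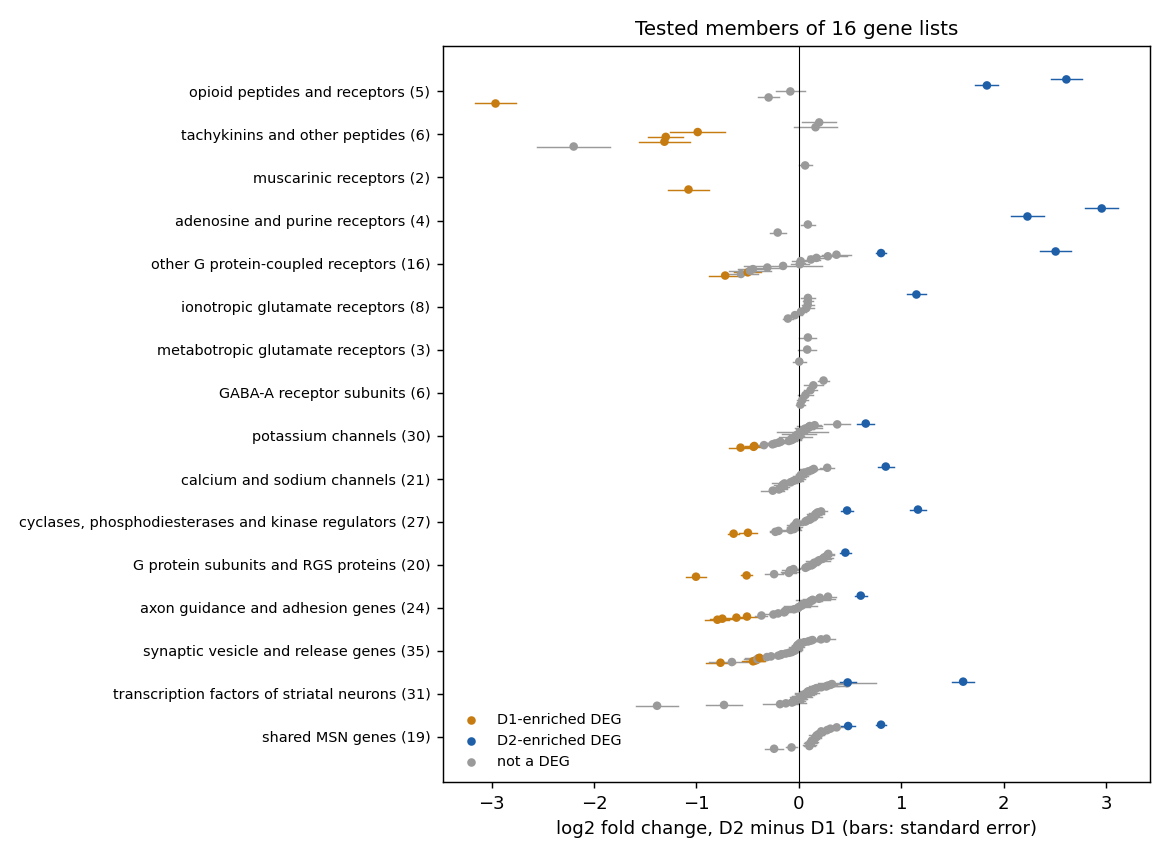
Log2 fold change, D2 minus D1 (x axis), with its standard error (bars) for every tested member of 16 gene lists (y axis, number tested in brackets); colours mark D1-enriched and D2-enriched DEGs and grey marks the rest. The opioid, purine and peptide lists reach beyond 2 on the log2 scale in at least 1 direction, while no member of the GABA-A or metabotropic glutamate list is a DEG.

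The length filter kept long genes out of the test, and 203 list genes entered only without it. Of these, 20 were DEGs (9.85%), 13 D1-enriched and 7 D2-enriched, beside 1.83% of all 10941 genes tested without the filter (1.15% D1-enriched and 0.676% D2-enriched). The lists were chosen with earlier results of these data known, and the 20 include the MSN markers Zfp521 and Plxdc1. The higher share therefore cannot be read as a result about long genes. The examples given here were picked after their values were seen. Nos1, which makes nitric oxide in interneurons, was at 12.1 ± 2.02 CPM in D1 and 5.90 ± 1.19 in D2 (log2 fold change -1.03, SE 0.13, adjusted p = 5.75e-05). Gfra1, a co-receptor of the GDNF family, and Reln, the secreted protein reelin, were also D1-enriched (log2 fold changes -1.20 and -0.72, adjusted p = 9.66e-05 and 0.000237). The D2-enriched genes included Unc5d, a netrin receptor, and Htr2c, a serotonin receptor, with log2 fold changes of 0.63 and 0.64 (adjusted p = 0.000243 and 0.000523).

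Markers of other cell types were present at low levels and moved in both directions. Glutamatergic neuron markers were higher in every D1 library than in any D2 library. Their summed level was 33.7, 34.0, 59.4, 32.9 and 30.3 CPM in D1. In D2 it was 14.9, 19.4, 22.8, 14.8 and 24.8 CPM. Of these 12 genes 5 were tested, and 4 of them passed the adjusted p higher in D1, which were Slc17a7, Tbr1, Nrn1 and Neurod2. Without D1 library 4 Neurod2 did not pass (adjusted p = 0.0531).

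Slc17a7, the vesicular glutamate transporter of cortical neurons, was at 10.9, 10.5, 27.4, 9.94 and 10.2 CPM in D1 and was the only DEG of the list. It was at 1.12, 1.02, 4.44, 0.729 and 5.19 CPM in D2 (log2 fold change -2.43, SE 0.38, adjusted p = 0.000286). D1 library 4 was far above the other D1 libraries, and without it the log2 fold change was −2.03 (adjusted p = 0.00019). Vxn, the neuronal differentiation gene vexin, had the same high library at 3.71, 4.83, 14.5, 4.32 and 6.16 CPM in D1 and was at 2.03 ± 0.878 CPM in D2 (log2 fold change -1.71, SE 0.32, adjusted p = 0.00232). It stayed past the adjusted p without library 4, at −1.23 (adjusted p = 0.000669). Tbr1, a factor of cortical projection neurons, was at 2.59, 2.23, 6.83, 1.93 and 1.93 CPM in D1 and 0.880 ± 0.622 CPM in D2 (log2 fold change -1.81, SE 0.39, adjusted p = 0.00773). It was at −1.30 without D1 library 4 (adjusted p = 0.0124). The part of glutamatergic neurons in the other D1-enriched genes was not tested.

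Nr4a2, a nuclear receptor of dopaminergic and some cortical neurons that is also induced by activity, was at 1.60, 2.47, 9.28, 2.46 and 3.80 CPM in D1. It was at 0.230, 0.224, 0.283, 0.189 and 0.252 CPM in D2, all below every D1 library (log2 fold change -4.03, SE 0.47, adjusted p = 7.74e-06), and without D1 library 4 the log2 fold change was −3.45. Its mean count fell under the limit on the mean count for a DEG. Of the other 7 dopaminergic markers none was tested, En1 had no count in any library, and Th and Slc6a3 had 37 and 7 counts over all D1 libraries and 68 and 5 over all D2 libraries. Ddc, the decarboxylase of dopamine and serotonin synthesis, went against Nr4a2, with 72 counts over the D1 libraries and 191 over the D2 libraries, and passed as higher in D2 without the length filter (log2 fold change 1.28, adjusted p = 0.0263).

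Summed over their lists, interneuron markers went in opposite directions. The cholinergic list summed to 9.73, 7.81, 8.97, 7.57 and 7.51 CPM in D1 and 9.92, 20.5, 15.6, 11.9 and 12.99 CPM in D2, so every D2 library was above every D1 library, narrowly in D2 library 1. Chat, which makes acetylcholine, had 77 counts over the D1 libraries and 316 over the D2 libraries, and the choline transporter Slc5a7 had 62 and 328. The length filter kept both out of the test, and without it Chat (log2 fold change 1.92, adjusted p = 0.000619) and Slc5a7 (log2 fold change 2.28, adjusted p = 0.000595) were higher in D2, under the limit on the mean count for a DEG. Ache, the enzyme that degrades acetylcholine, was the DEG of the list, at 2.85 ± 0.293 CPM in D1 and 4.02 ± 0.598 in D2 (log2 fold change 0.50, SE 0.11, adjusted p = 0.0101). Slc10a4 and Ecel1 also passed higher in D2 at low counts (adjusted p = 5.23e-05 and 0.000305), while Isl1 was higher in D1.

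GABA interneuron markers summed to 29.0, 38.1, 41.4, 25.3 and 33.8 CPM in D1 and 11.9, 27.3, 16.0, 14.2 and 20.1 CPM in D2, with overlap. Sst, the somatostatin peptide, was at 7.46, 12.1, 13.8, 6.91 and 10.6 CPM in D1. It was at 1.66, 7.39, 4.15, 2.62 and 5.05 CPM in D2, and D2 library 2 reached into the D1 range (log2 fold change -1.31, SE 0.25, adjusted p = 0.00248). Npy, a peptide of the same interneurons, was at 3.51 ± 1.17 and 1.78 ± 0.973 CPM (log2 fold change -0.99, SE 0.27, adjusted p = 0.0388), and it no longer passed without any of D1 libraries 2, 4 and 6 or D2 libraries 1, 2 and 5 (adjusted p up to 0.116), nor without the length filter (adjusted p = 0.0785), nor by DESeq2 (adjusted p = 0.188). Sst and Npy were the only 2 of the 15 genes tested. Without the length filter Nos1, described above, was D1-enriched. Maf also passed higher in D1 there (adjusted p = 0.0120), under the limit on the mean count for a DEG. Calb2 (161 and 158 counts over the D1 and the D2 libraries), Lhx6 (315 and 259) and Kit (353 and 414) did not pass. Their adjusted p-values without the length filter were 0.957, 0.6125 and 0.910.

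Of the glial and vascular markers 1 was a DEG. Astrocyte markers summed to between 64.2 and 90.6 CPM in D1 and between 56.2 and 72.6 CPM in D2. Slc1a2, the astrocytic glutamate transporter that some neurons also express, was D1-enriched at 32.7, 47.4, 54.5, 40.3 and 46.6 CPM in D1. It was at 26.9, 23.2, 26.9, 22.8 and 30.4 CPM in D2 (log2 fold change -0.77, SE 0.10, adjusted p = 5.14e-05), while Gfap, an astrocyte gene, had 39 and 22 counts over all libraries of each type. Other astrocyte markers outside the test were level or went either way, with 409 and 408 counts for Slc1a3, 5034 and 5449 for Slc4a4 and 95 and 69 for Gja1. Without the length filter Slc1a3 and Slc4a4 did not pass (adjusted p = 0.876 and 0.991). Oligodendrocyte markers summed to between 35.2 and 71.7 CPM in D1 and between 43.9 and 47.4 CPM in D2, and none of the 4 tested passed, while without D1 library 4, which had the lowest sum, 2 of them were D1-enriched DEGs. Cnp, a myelin enzyme gene, was at 14.7, 13.4, 13.3, 13.6 and 13.6 CPM in D1 and 13.6 ± 0.654 CPM in D2 (adjusted p = 0.93). Microglia markers summed to 14.9 to 17.7 CPM in D1 and 14.7 to 17.7 CPM in D2, with C1qc at 1 count in each type, and none was tested. Endothelial and mural markers summed to 3.25 to 7.79 CPM in D1 and 2.53 to 3.67 CPM in D2. Itm2a, the 1 member tested, was at 1.19 ± 0.171 and 0.709 ± 0.124 CPM, under the limit on the mean count for a DEG (log2 fold change -0.74, SE 0.18, adjusted p = 0.0173), and lost the adjusted p without D1 library 2 or D2 library 1 or 3 (up to 0.0634). Members outside the test went either way. Cldn5 (49 and 2 counts in D1 and D2) and Cdh5 (54 and 9) had more counts in D1, and Kdr (32 and 58) and Rgs5 (56 and 87) more in D2. Flt1 passed higher in D1 without the length filter (log2 fold change -1.25, adjusted p = 0.0308), under the same limit on the mean count.

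**Figure D5:**
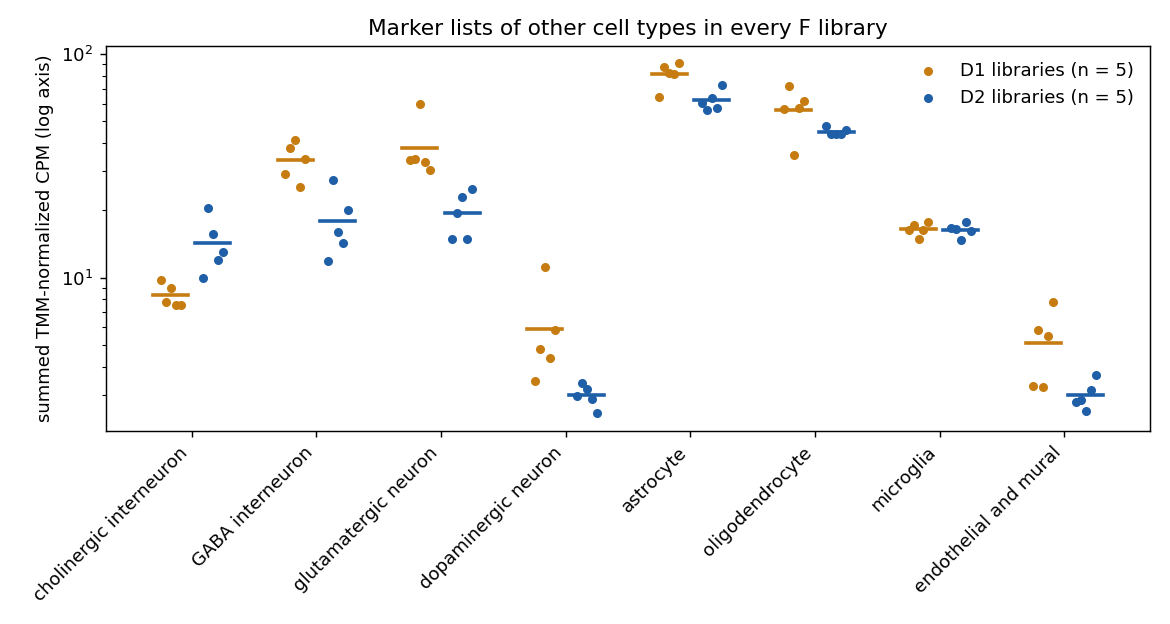
Summed TMM-normalized CPM (y axis, log scale) of 8 marker lists of other cell types (x axis); each point is 1 library and each bar the mean of 5 libraries. The glutamatergic list is higher in every D1 library, with D1 library 4 at 59.4 CPM, the dopaminergic list is so narrowly and through Nr4a2, with D1 library 4 at 11.2 CPM, and the cholinergic list is higher in every D2 library.

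Of the 15 mitochondrial transcripts all were tested and none passed, with the ribosomal RNAs mt-Rnr1 and mt-Rnr2 at 178 ± 54.2 and 152 ± 42.3 CPM in D1 and 175 ± 7.40 and 151 ± 8.30 CPM in D2 (adjusted p = 0.951 and 0.982). Xist was higher in D2, at 4.20 ± 1.68 CPM in D1 and 7.67 ± 2.36 in D2 with overlapping libraries (log2 fold change 0.85, SE 0.21, adjusted p = 0.0233). It did not pass without D1 library 1 or 5 or D2 library 6 (adjusted p up to 0.0698) or by DESeq2 (adjusted p = 0.111). Xist shares its reads with Tsix and Gm26992, which overlap it.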

How the data were processed

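RiboTag RNA from 10 female mice was ribo-depleted, prepared with a stranded SMARTer kit and sequenced in paired-end mode, per the labels. The authors aligned reads to GRCm38 with HISAT2 2.0.5 and counted them per gene with featureCounts over all features of a gene, introns included, without strand, leaving out multi-mapping reads and giving a read to every gene it overlapped. The deposited values are raw counts for 52636 genes, of which 52489 (99.72%) were matched to GENCODE names. The 10 columns give the group and not the single sample, 12 male RiboTag columns served only to check sex labels, and 27 other columns were not used. Genes with over 1 FPM (fragments scaled to library size) in 2 libraries and an FPKM of at least 0.1 (whole gene length) in 2 libraries were tested, 7057 in all. edgeR 4.0.16 in R 4.3.3 (TMM, quasi-likelihood F test, Benjamini-Hochberg adjustment) compared D2 with D1, and the SE was taken from F as the size of the fold change over its root. DESeq2 1.42.0, other filters, a replicate block and leaving out each library were tried. On simulated counts with 200 genes changed by 1.5 on the log2 scale, edgeR recovered 100% and 1.478% of its calls were false. That change was larger than the median of the D1-enriched and D2-enriched DEGs (0.57 and 0.64). The counts were drawn from the fitted dispersions and called without the limit on the mean count, so recovery of smaller changes was not tested. The members and gene lists were chosen with earlier results of these data known. Genes named were the MSN markers, the 12 DEGs of smallest p per direction, the 8 of largest change without overlap, up to 4 DEGs of each list (or 2 abundant members of a list without any), and the 10 genes with most counts. Some genes that this rule picks are not reported here. Ankk1, Ncam1, Gm11149, Asic4, Gucy1b1, Cck, Foxp1, Ppp1r1b, Oprk1, Adora1, Chrm1, Gabra4, Cntn2, Sv2b, Tbr1, Nrn1, Neurod2, Slc10a4, Ecel1, Chat, Slc5a7, Th, Slc6a3, En1, Gfap, C1qc, Nos1, Gfra1, Reln, Foxp2, Unc5d, Htr2c, Rgs10, Cnr1, Gpr26, Gabra3, Gabra5 and Ddc were named after their values were seen.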

Additional observations from a re-analysis of the deposited data

Results flagged for a closer look

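For 99 genes named in the report, the 5 D1 libraries and the 5 D2 libraries were searched for a library whose gap to its nearest neighbour took up an unusually large part of the range of the group on the log2 scale (Dixon's 95% critical value, 0.71). Of 198 groups of 5 libraries, 15 held such a library, and chance alone flags about 1 group in 20. D1 library 4 stood out 6 times. It was high for Slc17a7, the vesicular glutamate transporter (27.4 CPM, the other D1 libraries 9.94 to 10.9), and for Tbr1, a factor of cortical neurons (6.83 CPM, the others 1.92 to 2.59). It was also high for the 3 overlapping ribosomal RNA gene models, CT010467.1 (294000 CPM, the others 238000 to 250000), Gm42418 (252000 CPM, the others 204000 to 213000) and AY036118 (244000 CPM, the others 197000 to 206000). The same library was low for the potassium channel subunit Kcng1 (4.01 CPM, the others 4.37 to 4.48).

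D2 library 2 was low for 5 genes. They were Kcnk2 (18.3 CPM, the other D2 libraries 23.1 to 24.3), Foxp1 (71.1 CPM, the others 85.5 to 91.9), Ppp1r1b (126 CPM, the others 143 to 147), Sv2b (18.6 CPM, the others 24.9 to 27.6) and Gabra4 (20.7 CPM, the others 22.6 to 22.9). Among the other D1 libraries, library 5 was low for Igfbp4 (2.40 CPM, the others 4.67 to 5.21) and Htr2c (10.3 CPM, the others 12.9 to 13.8). Library 1 was low for Reln (17.8 CPM, the others 24.2 to 26.9) and high for Cnp, a myelin enzyme gene (14.7 CPM, the others 13.3 to 13.6).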

How the results depend on the processing

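The 134 DEGs, 83 D1-enriched and 51 D2-enriched, stayed within 1.5 times these counts with DESeq2 in place of edgeR (127, of which 125 were among the 134), with DESeq2 size factors (134), with library sizes taken without the top 10 genes (134), without the FPKM filter for the total (200) and without the limit on the mean count (183, chosen after seeing the data). The D1-enriched count moved to 126 without the FPKM filter. Without any filter on low counts, 30894 genes were tested and 495 were DEGs (336 D1-enriched, 159 D2-enriched), and with the strict FPKM filter, 1438 were tested and 35 were DEGs (18 and 17), a D1 share of 51.4% against 61.9%. Without the fold change threshold there were 270 (152 and 118). Members of the gene lists that were DEGs numbered 50, against 131 without a filter and 17 with the strict one. Leaving out each library in turn gave 117 to 147 DEGs, 72 to 95 D1-enriched, 45 to 53 D2-enriched and 45 to 52 list members. Libraries of the 2 types share 4 numbers in the count table. Same-numbered libraries did not deviate together over all genes tested (correlations −0.05 to 0.05). A correlation over all genes cannot exclude a pairing that touches only some of them. A fit with the number as a block gave 120 DEGs, 107 of them among the 134, with 70 D1-enriched, 50 D2-enriched and 51 list members. It took Kcnj9 (adjusted p = 0.0817), Nr4a3 (0.151) and Itm2a (0.169) above an adjusted p of 0.05. Bsn, Sv2b and Pde1a fell under the fold threshold there (log2 fold changes -0.349, -0.363 and -0.375). D1 library 4 and D2 library 3 have no partner of the same number, so they add nothing to the contrast in the fit with the block. Losses in that fit cannot be told apart from those of leaving these libraries out. Of the 81 genes named by rule and tested, 8 changed sign in at least 1 setting, all within 0.03 of 0 on the log2 scale in the fit reported and none near the threshold (smallest adjusted p = 0.407). Leaving out libraries, 772 of 801 gene results kept their side of the threshold, 25 lost it (6 genes) and 4 gained it. Slc6a3, with 0 to 3 reads per library, and En1, with none, mark the depth limit, since such counts do not carry a comparison.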

Other observations

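Opposite shifts of the MSN marker lists were seen within each cell type. D1 library 1 held the most of the D2-MSN list among D1 libraries (238 CPM) and D1 library 6 the least (121 CPM). D2 library 6 held the most of the D1-MSN list among D2 libraries (37.0 CPM) and D2 library 5 the least (16.7 CPM). D2 library 2 held the most of the cholinergic interneuron list (20.5 CPM) and of the GABA interneuron list (27.3 CPM) among D2 libraries. D1 library 2 held the most mitochondrial RNA of all 10 libraries (735 CPM) and D1 library 4 the least (408 CPM).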
